A study of Caenorhabditis elegans with 4 samples.

Results

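The genes described are the cytochrome P450 (cyp-), UDP-glucuronosyltransferase (ugt-) and glutathione S-transferase (gst-) genes of Caenorhabditis elegans. They were taken from the count table by WormBase symbol, which gave 184 of 20392 genes: 73 cyp-, 67 ugt- and 44 gst- genes. The libraries come from RNA immunoprecipitation followed by sequencing (RIP-seq), in which the RNA recovered with a protein (IP) is compared with the RNA of the lysate it was recovered from (input). The protein is LIN-41, a TRIM-NHL RNA-binding protein. The IP and the input came from the same lysates of whole young adult worms of 1 laboratory strain, in which the endogenous gene carried lin-41(rrr3) and a rescuing transgene, rrrSi367, expressed FLAG-GFP-TEV-LIN-41 from the lin-41 promoter with the full-length lin-41 3′UTR. Both fractions therefore share the mutation and the transgene. Worms fed E. coli OP50 were grown in different weeks for 2 biological replicates, the tagged protein was recovered with anti-FLAG beads, and each replicate gave 1 IP and 1 input library. A mock IP was not analysed here, so RNA that binds the beads or the tags cannot be told apart from RNA bound by LIN-41.

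Cytochrome P450s are haem enzymes that oxidise lipids, steroids and foreign compounds, using electrons passed on by a reductase or by cytochrome b5. UDP-glucuronosyltransferases attach a sugar from a nucleotide sugar to such molecules, and glutathione S-transferases attach glutathione, so that the products become more soluble and can be pumped out of the cell. In C. elegans the families are large, many members are expressed in the intestine and the hypodermis, and many are induced by xenobiotics or oxidative stress. Some members act elsewhere, for example in the germline and the embryo.

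The libraries held 39432325 and 40743247 counts in the IPs, against 33455857 and 38891261 counts in the inputs. Counts were found for 16824 and 16502 genes in the IPs, against 17112 and 17123 genes in the inputs. The scaling factors of the trimmed mean of M-values (TMM), which place most genes near equal abundance, were 0.779 and 0.672 for the IPs against 1.43 and 1.34 for the inputs. A log2 fold change below is the IP over the input on this scale from edgeR, with its standard error. The p-values were adjusted over 14029 tested genes by Benjamini-Hochberg at 0.05. Standard errors and p-values rest on a spread shared between genes, not on the gene's own replicates, and may be too small. Over all tested genes the median log2 fold change was -0.14, and scaling by library size only moved it to -1.07. Changes are therefore relative to the bulk of the mRNAs. The lysates were of whole worms, so in a level from either fraction fewer cells of a type and less RNA per cell cannot be told apart, while the IP and the input of a replicate share 1 lysate. Of the marker lists, 12 of 13 intestine genes were lower in the IP and 1 did not pass the test (13 lower with library size only). Their summed levels were 2575 and 1986 CPM (counts per 1e6 of scaled depth) in the IPs against 4265 and 3124 CPM in the inputs. Of 7 oocyte genes 6 were higher and 1 was lower (3 and 1 with library size only), with sums of 8129 and 8270 CPM in the IPs against 3000 and 3379 CPM in the inputs. Of 5 hypodermis genes 2 were higher and 0 lower, and of 9 germline genes 4 were higher and 2 lower. With library size only these were 0 and 2, and 1 and 5. Over all tested genes 32.9% were higher and 35.4% lower (11.9% and 66.5% with library size only). No intestine or oocyte gene was at 0, and the part of these tissues in the results below was not tested.

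Most gst- genes were lower in the IP, while ugt- genes leaned less to that side and cyp- genes were spread to either side. On the TMM scale 40 of 55 tested ugt- and 31 of 53 tested cyp- genes lay below the median of all tested genes. Many genes of these 2 families did not pass the test. Of the 44 gst- genes 39 were tested, and 32 of them were lower in the IP, 2 were higher and 5 did not pass the test. Of the 67 ugt- genes 55 were tested, with 26 lower, 6 higher and 23 past neither side. Of the 73 cyp- genes 53 were tested, with 18 lower, 11 higher and 24 past neither side. The background was 35.4% of all tested genes lower (4960 genes) and 32.9% higher (4611 genes). The share of members called lower was 82.1% for gst-, 47.3% for ugt- and 34% for cyp-, so the cyp- share lies near the background. The ugt- share was above it in this fit but below it with DESeq2, at 16.4% of 55 genes against 22.5% of 14380 genes, where gst- had 61% of 41 and cyp- 11.1% of 54. The share called higher was 5.13%, 10.9% and 20.8% for gst-, ugt- and cyp-, each below the background.

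The median log2 fold change was -1.52 for gst-, with an interquartile range of -1.97 to -0.69. It was -0.43 for ugt- (-0.86 to -0.05) and -0.27 for cyp- (-1.06 to 0.39), while all tested genes ranged from -0.87 to 0.69 between their quartiles. In replicates 1 and 2 the median log2 ratio was -1.18 and -1.81 for gst-, -0.42 and -0.50 for ugt-, and -0.48 and -0.09 for cyp-. The gst- median was the lowest in each replicate, and the order of ugt- and cyp- changed between them. The difference between families was not tested. On the scale of the study, which quantile-normalizes log2 counts after a pseudocount of 8, the median IP enrichment was -1.12 for gst-, -0.08 for ugt- and 0.02 for cyp-, against -0.11 for all tested genes. On this scale the medians of ugt- and cyp- were thus close to that of all genes.

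**Figure D1:**
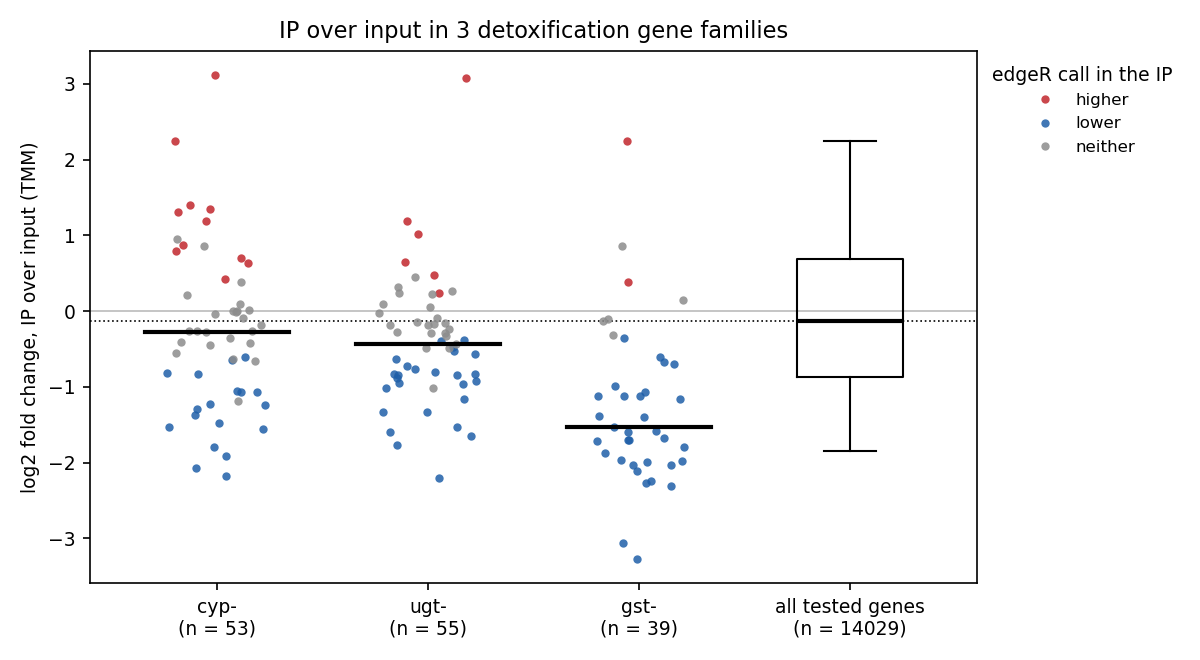
Log2 fold change of the IP over the input (TMM scale, y axis) for each tested cyp-, ugt- and gst- gene, coloured by its edgeR call, with bars at family medians; the box shows quartiles, median and 5th to 95th percentile range of all tested genes, and the dotted line their median of -0.14. The gst- points lie mostly below the dotted line around a median of -1.52, while cyp- points reach from -2.18 to 3.12.

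Direction was mostly shared by the replicates. Among tested gst- genes 33 were lower in the IP of both replicates, 4 were higher in both and 2 moved in opposite directions. For ugt- these numbers were 38, 9 and 8, and for cyp- 27, 14 and 12. Over all 14029 tested genes they were 6752, 5667 and 1610. The part with opposite directions was thus larger for cyp- and ugt- than over all genes, and smaller for gst-. Both IP values lay below both input values for 31 gst-, 30 ugt- and 24 cyp- genes, compared with 6123 of the 14029 tested genes. Across genes, which are not independent replicates and share their libraries, Pearson r between the replicates' log2 ratios was 0.817 for 38 gst-, 0.706 for 54 ugt- and 0.75 for 53 cyp- genes with counts in all 4 libraries. Over all 13933 such genes r was 0.89, above the value of each family.

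**Figure D2:**
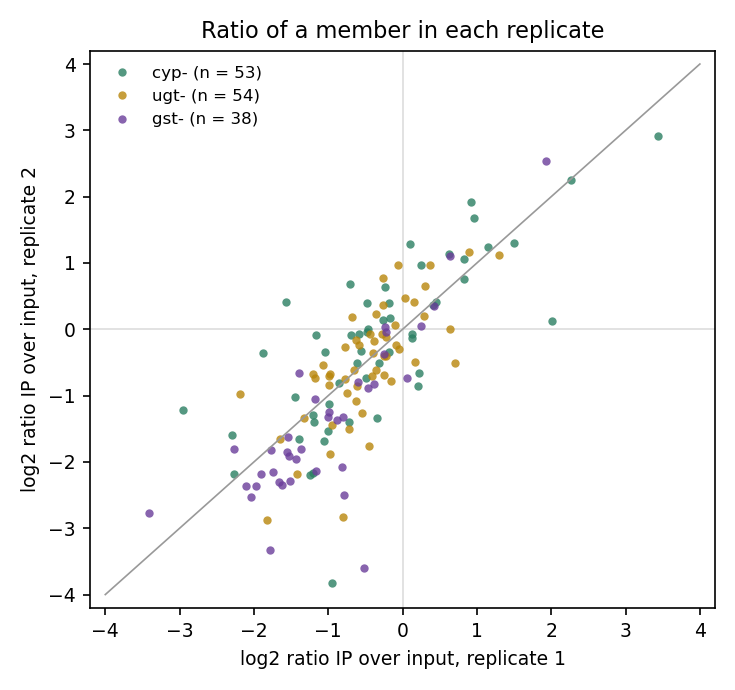
Log2 ratio of the IP over the input in replicate 1 (x axis) against replicate 2 (y axis), TMM scale, for each tested member with counts in all 4 libraries; the diagonal marks equal ratios. Most gst- points lie at the lower left, below 0 on both axes, and Pearson r was 0.817 for gst-, 0.706 for ugt- and 0.75 for cyp- genes.

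The families also differed in their weight in the libraries. All gst- genes together took 0.0405% and 0.0347% of the IP counts, against 0.161% and 0.184% of the input counts. The Wilson 95% intervals, which cover counting error only, were 0.0399% to 0.0411% and 0.0342% to 0.0353% in the IPs, against 0.159% to 0.162% and 0.182% to 0.185% in the inputs. The ugt- genes took 0.0130% and 0.0109% of the IP counts, against 0.0303% and 0.0256% of the input counts. The cyp- genes took 0.0273% and 0.0248% of the IP counts, against 0.0381% and 0.0345% of the input counts. The IP share was below the input share in every family and in both replicates, on the library-size scale that put the median of all tested genes at -1.07. On the TMM scale the cyp- genes summed to more in the IPs, with 350.2 and 369 CPM, against 266.8 and 257.7 CPM in the inputs. The ugt- genes summed to 166.9 and 161.7 CPM in the IPs, against 212.3 and 191.3 CPM in the inputs, and the gst- genes to 520.0 and 516.8 CPM in the IPs, against 1126 and 1372 CPM in the inputs. Per length, the median tested gst- gene had 7.81 RPKM in the input (CPM per kilobase of gene model), against 1.05 RPKM for ugt- and 0.881 RPKM for cyp-, and 6.05 RPKM over all tested genes.

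The families were also compared at matched input levels. Among genes of 10 to 100 RPKM in the input, 14 gst- genes had a median log2 fold change of -1.69, against 0.34 for the 4909 tested genes of that range. Among genes of 1 to 10 RPKM the medians were -1.25 for 16 gst-, -0.57 for 29 ugt- and -0.34 for 20 cyp- genes, against -0.39 for 4793 genes. Below 1 RPKM they were -1.46 for 4 gst-, -0.29 for 25 ugt- and -0.35 for 29 cyp- genes, against -0.33 for 3243 genes. For 10 to 100 RPKM the medians were 0.61 for 4 cyp- genes and 0.24 for 1 ugt- gene. Above 100 RPKM lay 5 gst- genes (gst-1, gst-5, gst-7, gst-13 and gst-20) and no cyp- or ugt- gene. The gst- median there was -1.16, against -0.39 for all 1084 genes of that range. The lower quartile of that range was -1.12, near gst-1 (-1.16), gst-7 (-1.11) and gst-13 (-1.12). All 5 were called lower, against 54.4% of that range. The gst- median was below that of all genes in each range, and below any cyp- or ugt- median there. The ugt- and cyp- medians below 1 RPKM were near that of all genes. The gst- gene models are short, with a median of 722 bases against 1698 for ugt- and 1590 for cyp-. Tested genes under 1000 bases had a median log2 fold change of -0.27 and those of 1400 to under 2000 bases one of -0.06, and the part of length in the family difference was not tested.

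**Figure D3:**
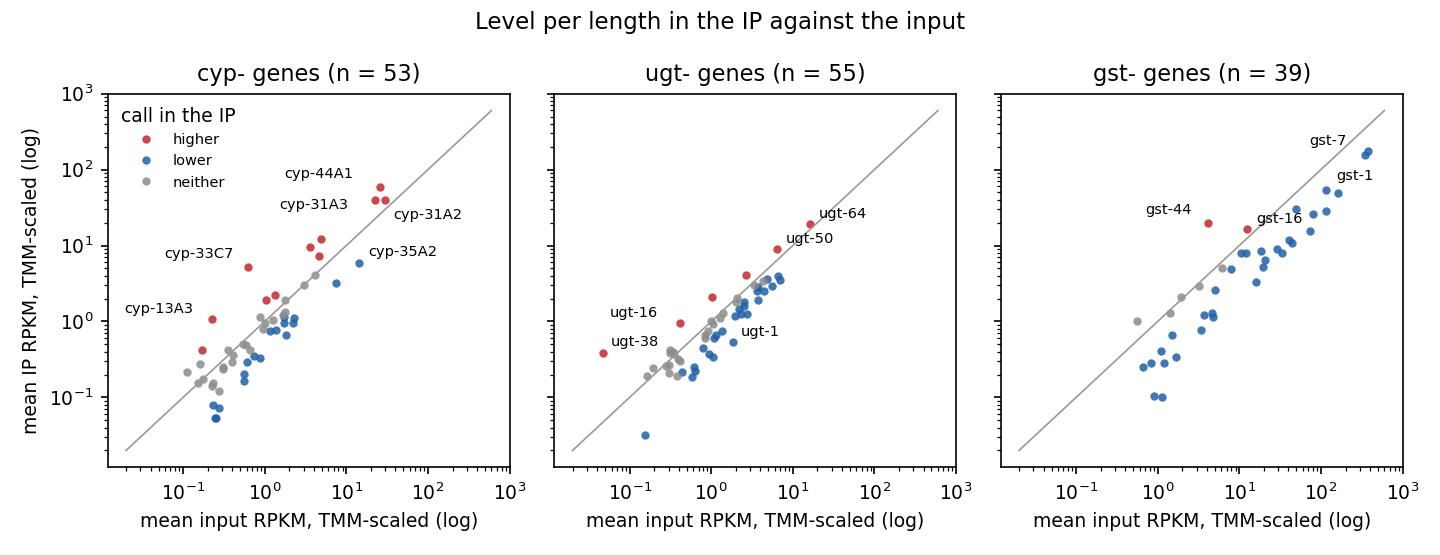
Mean level in the IPs (y axis) against mean level in the inputs (x axis), in TMM-scaled RPKM on log axes, for the tested members of each family, coloured by edgeR call; the diagonal marks equal levels. The most abundant cyp- genes (cyp-44A1, cyp-31A2 and cyp-31A3) lie above the diagonal, and gst-1 and gst-7, the most abundant of all members, lie below it.

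The most abundant gst- genes were lower in the IP. The gst-7 gene had 4174 and 3326 counts in the IPs, against 12837 and 14979 counts in the inputs. The gst-1 gene, a Pi-class-like transferase studied in dopaminergic neurons, had 4160 and 3311 counts in the IPs, against 12959 and 15687 counts in the inputs. Both IP values of either gene lay well under both input values. The log2 fold change was -1.11 ± 0.11 for gst-7 (adjusted p = 1.43e-21) and -1.16 ± 0.12 for gst-1 (adjusted p = 4.42e-23, edgeR). Together these genes held 52.2% and 46.9% of the gst- counts of the IPs, against 47.98% and 42.9% in the inputs, so their part of the family total was similar in both fractions.

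Other gst- genes have known roles in oxidative stress. The SKN-1 reporter gene gst-4 had 187 and 184 counts in the IPs, against 899 and 1777 counts in the inputs. Its inputs differed between replicates by more than its IPs, and no IP value reached an input value. The log2 fold change of gst-4 was -1.99 ± 0.13 (adjusted p = 4.67e-48, edgeR). The gene dhs-12 overlaps it on the same strand in the later annotation and was lower too, with a log2 fold change of -1.74 ± 0.11. The gst-5 and gst-10 products conjugate 4-hydroxynonenal, a product of lipid peroxidation. The gst-5 gene had 1042 and 1021 counts in the IPs, against 4655 and 7290 counts in the inputs, a log2 fold change of -1.72 ± 0.11 (adjusted p = 7.28e-58, edgeR). Its neighbour nos-1 overlaps it on the opposite strand and had 51601 and 62737 counts in the IPs, against 1517 and 1918 counts in the inputs. The sources used here do not say whether reads were assigned by strand, and without that, reads of gst-5 and nos-1 in the shared stretch cannot be told apart. The gst-10 gene had 620 and 561 counts in the IPs, against 2497 and 3736 counts in the inputs, a log2 fold change of -1.59 ± 0.11 (adjusted p = 2.02e-48, edgeR).

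Of the zeta-class-like transferases, gst-42 encodes the maleylacetoacetate isomerase of tyrosine catabolism. This gene had 279 and 223 counts in the IPs, against 1277 and 1524 counts in the inputs, a log2 fold change of -1.70 ± 0.13 (adjusted p = 4.98e-39, edgeR). The related gst-43 had 5.77 and 5.19 CPM in the IPs, against 7.52 and 9.15 CPM in the inputs. It was lower by less, with a log2 fold change of -0.60 ± 0.16 (adjusted p = 0.00046, edgeR). The groups did not overlap for either gene.

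The gst- genes with the smallest log2 fold changes were gst-14, gst-34, gst-29, gst-36, gst-39 and gst-33. Of these gst-36 was the most abundant, with 409 and 265 counts in the IPs, against 2606 and 2903 counts in the inputs. The log2 fold change of gst-36 was -2.27 ± 0.12 (adjusted p = 1.05e-83, edgeR), the smallest adjusted p of the gst- genes. Its opposite-strand neighbour scav-5 had 22 and 15 counts in the IPs, against 44 and 47 counts in the inputs. The gst-14 gene had 4 and 0 counts in the IPs, against 24 and 48 counts in the inputs. Its summed IP level was 0.0956 times the input level, with an exact 95% interval of 0.0254 to 0.256 that covers counting error only. The gst-34 gene had 2 and 2 counts in the IPs, against 33 and 26 counts in the inputs, a ratio of 0.117 (0.0308 to 0.315). The log2 fold changes of gst-29, gst-39 and gst-33 were -2.31, -2.24 and -2.11. Other abundant members, gst-20 and gst-13, had log2 fold changes of -1.98 and -1.12.

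The exceptions were gst-44 and gst-16. The gst-44 gene had 439 and 585 counts in the IPs, against 179 and 191 counts in the inputs. Both IP values lay above both inputs, and the log2 fold change was 2.24 ± 0.15 (adjusted p = 8.94e-48, edgeR), or 1.31 with library size only. It was called higher under every alternative run. The opposite-strand gene srd-63, which overlaps it, had 1 and 1 counts in the IPs and none in the inputs. The gst-16 gene had 309 and 348 counts in the IPs, against 358 and 520 counts in the inputs, and its log2 fold change was 0.38 ± 0.14 (adjusted p = 0.013, edgeR) but -0.55 with library size only. Its direction thus depends on the scaling, and its call was lost without IP replicate 2 (adjusted p = 0.574).

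**Figure D4:**
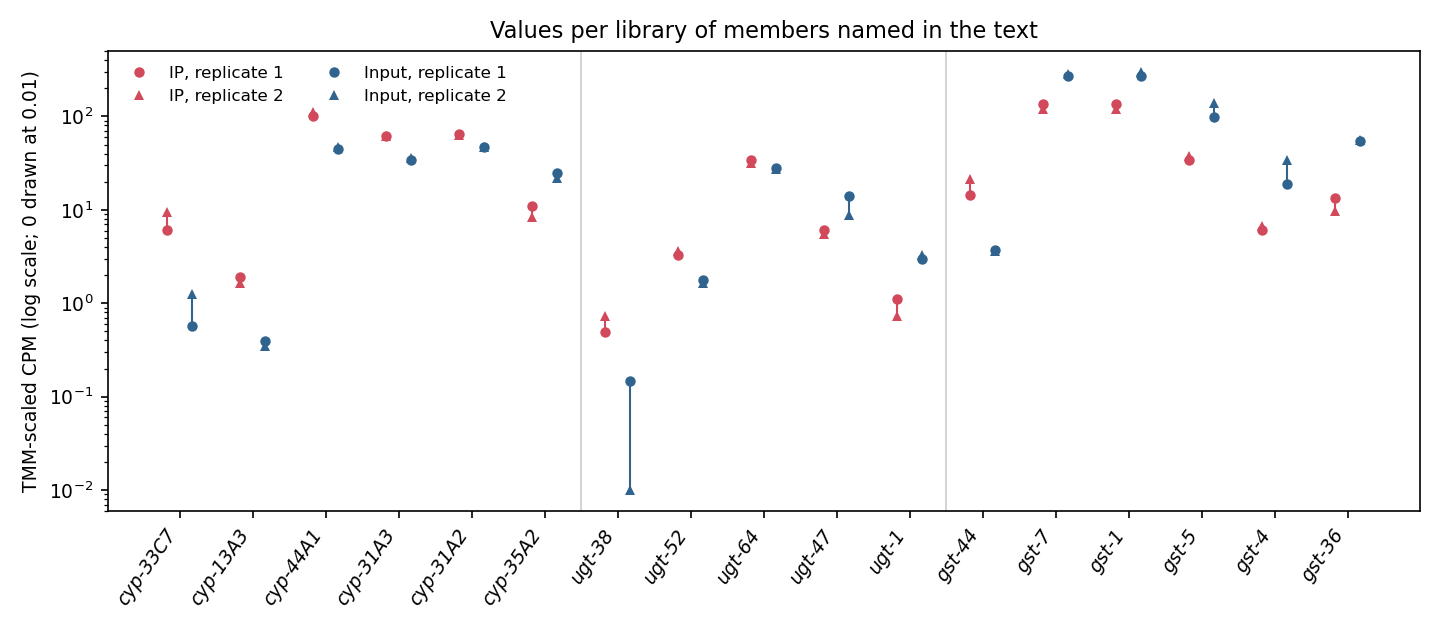
TMM-scaled CPM (y axis, log scale) of members named in the text, by gene along the x axis, with the IPs to the left of the inputs, circles for replicate 1 and triangles for replicate 2; a value of 0 (ugt-38 in input replicate 2) is drawn at 0.01. IP points lie above input points for cyp-33C7, cyp-13A3, cyp-44A1, ugt-38 and gst-44 and below them for cyp-35A2, ugt-1, gst-1, gst-5 and gst-36.

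Among the cyp- genes, the 3 with the most counts were higher in the IP on the TMM scale. They are cyp-44A1, a P450 of the mitochondrial type, and the close paralogs cyp-31A2 and cyp-31A3, which act with the P450 reductase EMB-8 in making the lipid-rich permeability barrier of the eggshell. Together they held 64.5% and 63.6% of the cyp- counts of the IPs, against 47.6% and 50.7% in the inputs. The cyp-44A1 gene had 3068 and 3041 counts in the IPs, against 2153 and 2452 counts in the inputs. Its log2 fold change was 1.19 ± 0.10 (adjusted p = 2.23e-30, edgeR), and 0.26 with library size only, where the call was lost (adjusted p = 0.148). It shares a stretch of the same strand with npp-24, whose log2 fold change was -0.21 ± 0.10 (adjusted p = 0.0584, edgeR).

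The cyp-31A3 gene had 1873 and 1672 counts in the IPs, against 1639 and 1879 counts in the inputs, so its raw counts overlapped between fractions. The cyp-31A2 gene had 1994 and 1718 counts in the IPs, against 2273 and 2465 counts in the inputs, so its raw IP counts were the lower ones. On the TMM scale, the log2 fold change of cyp-31A3 was 0.79 ± 0.10 (adjusted p = 2.47e-14, edgeR), turning to -0.14 with library size only (adjusted p = 0.44). For cyp-31A2 it was 0.43 ± 0.10 (adjusted p = 5.21e-05, edgeR), turning to -0.51 with library size only (adjusted p = 0.00384). Their direction is thus one relative to other mRNAs. The sources used here do not say how reads matching both paralogs were handled, so that the split between them is uncertain. The reductase gene emb-8 had 5492 and 4855 counts in the IPs, against 4536 and 5201 counts in the inputs, which overlap. For emb-8 the log2 fold change was 0.87 ± 0.11 (adjusted p = 1.95e-15, edgeR), and -0.06 with library size only (adjusted p = 0.739).

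The cyp- genes with the largest log2 fold changes were less abundant. The cyp-33C7 gene had 188 and 262 counts in the IPs, against 27 and 66 counts in the inputs. Its log2 fold change of 3.12 ± 0.22 (adjusted p = 6.89e-45, edgeR) was the highest of the 147 tested members, and its level per length was 5.27 RPKM in the IPs against 0.616 RPKM in the inputs. The cyp-13A3 gene had 59 and 45 counts in the IPs, against 19 and 18 counts in the inputs, a log2 fold change of 2.25 ± 0.39 (adjusted p = 2.14e-08, edgeR). The cyp-13B2 gene had 547 and 450 counts in the IPs, against 300 and 348 counts in the inputs, a log2 fold change of 1.40 ± 0.14 (adjusted p = 1.52e-22, edgeR). The cyp-35C1 gene, which is induced by xenobiotics, had 516 and 575 counts in the IPs, against 413 and 342 counts in the inputs, a log2 fold change of 1.31 ± 0.14 (adjusted p = 1.99e-21, edgeR). These 4 genes were the cyp- genes called higher under every alternative that tested them. The share of all tested genes that kept a call under every alternative was not computed. This count and those like it below thus have no background. The cyp-33C4 gene had 22 and 18 counts in the IPs, against 18 and 9 counts in the inputs. Its log2 fold change was 1.35 ± 0.52 (adjusted p = 0.0143, edgeR), and 0.43 with library size only (adjusted p = 0.447).

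Other cyp- genes were lower in the IP. The cyp-35A2 gene, whose loss alters fat storage, had 334 and 228 counts in the IPs, against 1183 and 1143 counts in the inputs. The log2 fold change of cyp-35A2 was -1.29 ± 0.13 (adjusted p = 8.9e-23, edgeR), and with cyp-34A9, cyp-23A1 and cyp-33C3 it was 1 of 4 cyp- genes called lower under every alternative that tested them. Its subfamily relatives cyp-35A3 and cyp-35A4 were lower as well, at -0.83 and -1.06, while cyp-35A5 had a log2 fold change of -0.27 and did not pass the test. The cyp-34A9 gene, regulated by DAF-16, had 204 and 111 counts in the IPs, against 732 and 516 counts in the inputs, a log2 fold change of -1.24 ± 0.16 (adjusted p = 6.41e-15, edgeR). The DAF-16-regulated cyp-35B1 was also lower, at a log2 fold change of -1.91 ± 0.67 on 2 and 5 counts in the IPs, against 24 and 22 counts in the inputs. The thiabendazole-metabolising cyp-35D1 had 3 and 11 counts in the IPs, against 23 and 63 counts in the inputs, a log2 fold change of -1.80 ± 0.52 (adjusted p = 0.0011, edgeR). Rifampicin-induced cyp-13A7 had 2 and 3 counts in the IPs, against 15 and 26 counts in the inputs, and its summed IP level was 0.210 times the input level (exact 95% interval 0.0647 to 0.531). The others of the lowest 6 were cyp-34A10, cyp-14A4 and cyp-37B1, at log2 fold changes of -2.07 ± 0.74, -1.55 ± 0.70 and -1.53 ± 0.28. Counts of cyp-34A10 were 4 and 1 in the IPs, against 12 and 27 in the inputs, a ratio of 0.221 (0.0679 to 0.56). Those of cyp-14A4 were 5 and 2 in the IPs, against 18 and 17 in the inputs, a ratio of 0.344 (0.129 to 0.786). For cyp-37B1 they were 56 and 10 in the IPs, against 207 and 87 in the inputs.

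The cyp-29A3 and cyp-33E2 products act on eicosanoids. The cyp-29A3 gene had 32 and 37 counts in the IPs, against 112 and 75 counts in the inputs, with a log2 fold change of -0.64 ± 0.30 and an adjusted p of 0.0491 (edgeR) just inside the threshold. The cyp-33E2 gene had 29 and 18 counts in the IPs, against 54 and 31 counts in the inputs, a log2 fold change of -0.08 ± 0.40 that did not pass the test. The cyp-36A1 gene, placed in the EGL-9 and HIF-1 pathway, had 45 and 50 counts in the IPs, against 114 and 59 counts in the inputs, a log2 fold change of -0.04 ± 0.29 that did not pass either. Its opposite-strand neighbour figo-1 was higher, at 0.97 ± 0.10. The sign of cyp-33E2 and of cyp-36A1 changed with the tool or the library left out. The cyp-14A3 gene, with 6 and 3 counts in the IPs against 5 and 7 counts in the inputs, was too low to be tested.

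Like the cyp- genes, most ugt- genes were of low level, and their median change was smaller in size than that of gst- genes. The most abundant, ugt-64, had 1046 and 868 counts in the IPs, against 1333 and 1439 counts in the inputs. It held 20.4% and 19.6% of the ugt- counts of the IPs, against 13.2% and 14.5% in the inputs. Its log2 fold change was 0.24 ± 0.11 (adjusted p = 0.0379, edgeR), turning to -0.69 with library size only (adjusted p = 8.88e-05). The ugt-50 gene had 434 and 524 counts in the IPs, against 550 and 635 counts in the inputs, a log2 fold change of 0.48 ± 0.13 (adjusted p = 0.000498, edgeR) that turned to -0.46 with library size only. The ugt-44 gene had 244 and 184 counts in the IPs, against 294 and 179 counts in the inputs, a log2 fold change of 0.65 ± 0.17 (adjusted p = 0.000246, edgeR) that turned to -0.28 with library size only. These members were above the bulk of mRNAs on the TMM scale, and below the input in raw share.

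The ugt- genes called higher with larger log2 fold changes were scarce. The ugt-38 gene had 15 and 20 counts in the IPs, against 7 and 0 counts in the inputs. Its summed IP level was 8.60 times the input level, with an exact 95% interval of 3.77 to 22.9 for counting error, and its adjusted p was 9.76e-06 (edgeR) but 0.069 without IP replicate 2. The ugt-16 gene, which is induced by benzimidazole drugs, had 41 and 56 counts in the IPs, against 26 and 49 counts in the inputs. For ugt-16 the log2 fold change was 1.19 ± 0.35 (adjusted p = 0.0011, edgeR), and 0.26 with library size only (adjusted p = 0.492). The ugt-52 gene had 100 counts in each IP, against 84 and 85 counts in the inputs, a log2 fold change of 1.02 ± 0.24 (adjusted p = 3.39e-05, edgeR), and 0.09 with library size only (adjusted p = 0.741). No ugt- gene was called higher under every alternative.

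Of the ugt- genes that were lower, ugt-1 had 1.11 and 0.730 CPM in the IPs, against 2.98 and 3.31 CPM in the inputs, a log2 fold change of -1.76 ± 0.28 (adjusted p = 5.57e-10, edgeR). The ugt-22 gene, whose product acts on the anthelmintic albendazole, had 174 and 126 counts in the IPs, against 453 and 464 counts in the inputs, a log2 fold change of -0.84 ± 0.16 (adjusted p = 5e-07, edgeR). The ugt-47 gene had 188 and 151 counts in the IPs, against 674 and 459 counts in the inputs, a log2 fold change of -0.95 ± 0.16 (adjusted p = 2.96e-09, edgeR). These 3 genes, with ugt-29 and ugt-49, were the 5 ugt- genes called lower under every alternative that tested them. The ugt-58 gene, also among the most abundant, had 246 and 161 counts in the IPs, against 587 and 552 counts in the inputs, a log2 fold change of -0.73 ± 0.15. The scarcer ugt-21, ugt-54, ugt-33 and ugt-6 had log2 fold changes of -1.65, -1.60, -1.53 and -1.33. The ugt-27 gene had 2 and 1 counts in the IPs, against 11 and 14 counts in the inputs, a ratio of 0.206 with an exact 95% interval of 0.0399 to 0.677. The ugt-63 gene had 100 and 103 counts in the IPs, against 167 and 187 counts in the inputs, with a log2 fold change of -0.02 ± 0.20 that did not pass the test.

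Of the members that were not tested, 20 were cyp-, 12 ugt- and 5 gst- genes. The largest count of any of them in 1 library was 15 for cyp-, 13 for ugt- and 29 for gst-. No count was found in any library for gst-18, ugt-15 and ugt-35. The members not tested did not pass the count filter of the main fit, and at these depths small differences could go undetected. The fit with no filter tested 73 cyp-, 65 ugt- and 43 gst- genes.

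Many members lie in tandem groups, with at most 1 other protein-coding gene between neighbours (Ensembl release 115, WBcel235). On chromosome V there are 41 cyp- and 42 ugt- genes, and on chromosome II 25 gst- genes. A cyp-13A group on chromosome II had 6 tested members, with 1 higher and 3 lower, and its log2 fold changes spread from -2.18 for cyp-13A7 to 2.25 for cyp-13A3. A cyp-33C group on chromosome V had 4 tested members, with 2 higher and 1 lower, from -1.06 for cyp-33C3 to 3.12 for cyp-33C7. Neighbours in these groups thus had opposite calls, and the split of reads between such similar copies is uncertain. The gst- groups were more even. Over all tested genes 35.4% were lower and 32.9% higher, and over the tested gst- genes 82.1% were lower. Of 9 tested genes in the group with gst-26, gst-27 and gst-28, 8 were lower (88.9%, near the gst- share), with a median of -1.68. The 3 genes gst-6, gst-7 and gst-8 were all lower, from -1.88 to -1.11, as were gst-2, gst-3 and gst-4, from -2.03 to -1.40. The group with gst-14, gst-16 and gst-20 was mixed, with 5 lower and 1 higher of 7 tested genes, from -3.27 to 0.38.

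Genes of related function were described in the same fit, where 35.4% of all tested genes were lower and 32.9% higher. With library size only these shares were 66.5% and 11.9%. All 5 flavin monooxygenase genes (fmo-1 to fmo-5), which oxidise nitrogen and sulphur atoms, were lower, with a median log2 fold change of -1.98. Of 5 glutathione transferase genes of other classes 4 were lower (gsto-1, gsto-2, gstk-1 and gstk-2), and gsto-3 was higher at 0.93 ± 0.18, with a value near 0 and no call under library size only (adjusted p = 0.988). Of 6 genes for P450 electron donors and associated enzymes, cytb-5.1, cytb-5.2 and vem-1 were lower at -1.47, -1.25 and -0.36. In the same list emb-8 and hpo-19 were higher on the TMM scale (none of the 6 was higher and 5 were lower with library size only), and daf-9, which makes dafachronic acid, had a log2 fold change of -1.38 and did not pass (adjusted p = 0.0627, edgeR). Under library size only hpo-19 turned to -0.45 (adjusted p = 0.0148).

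The glutathione genes were split. The gene gss-1 for glutathione synthetase had 3211 and 2651 counts in the IPs, against 2245 and 2428 counts in the inputs, a log2 fold change of 1.10 ± 0.10, and 0.17 with library size only (adjusted p = 0.351). The gene gcs-1 for the rate-limiting step of glutathione synthesis and the reductase gene gsr-1 were lower, at -0.53 ± 0.12 and -1.63 ± 0.11. The gene sqv-4, whose UDP-glucose dehydrogenase supplies UDP-glucuronate, was lower at -0.74 ± 0.11. Among 29 tested short-chain dehydrogenase (dhs-) genes 19 were lower and 5 higher, with a median of -0.66 (24 and 3 with library size only). Among 21 tested ABC transporter genes of the pgp- and mrp- groups, which export conjugates, 11 were lower and 3 higher, with a median of -0.86 (18 and 1 with library size only). In these lists 65.5% of the dhs- and 52.4% of the transporter genes were lower and 17.2% and 14.3% higher, against 35.4% lower and 32.9% higher over all tested genes. The mrp-4 gene was 1 of the 3, at a log2 fold change of 1.61, and was also called higher with library size only (0.68, adjusted p = 0.000224).

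Of 10 tested regulators of detoxification genes 6 were higher and 3 lower on the TMM scale, against 32.9% higher and 35.4% lower over all tested genes. With library size only the balance turned, with 2 higher and 4 lower, and the median of 0.82 turned to -0.11. The gene wdr-23, whose product represses SKN-1, had 9393 and 8841 counts in the IPs, against 3806 and 4868 counts in the inputs, a log2 fold change of 1.86 ± 0.12 (adjusted p = 2.04e-57 in edgeR). Both nhr-48 at 1.98 and wdr-23 were called higher under library size only as well, at 1.05 and 0.93. The transcription factor gene skn-1 had 9473 and 7866 counts in the IPs, against 6863 and 8096 counts in the inputs, a log2 fold change of 0.99 ± 0.12, and 0.06 with library size only (adjusted p = 0.767). The log2 fold changes of mdt-15, aha-1 and nhr-86 were 1.26, 1.03 and 0.65, and none of these was called under library size only, where nhr-86 turned to -0.28. The lower ones were ahr-1 and nhr-8, at -2.07 and -1.56, and hif-1, with 49.8 and 48.6 CPM in the IPs against 96.5 and 100.3 CPM in the inputs. The log2 fold change of nhr-49 was -0.17 and did not pass the test, and with library size only it was -1.10 and called lower (adjusted p = 1.02e-09).

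**Figure D5:**
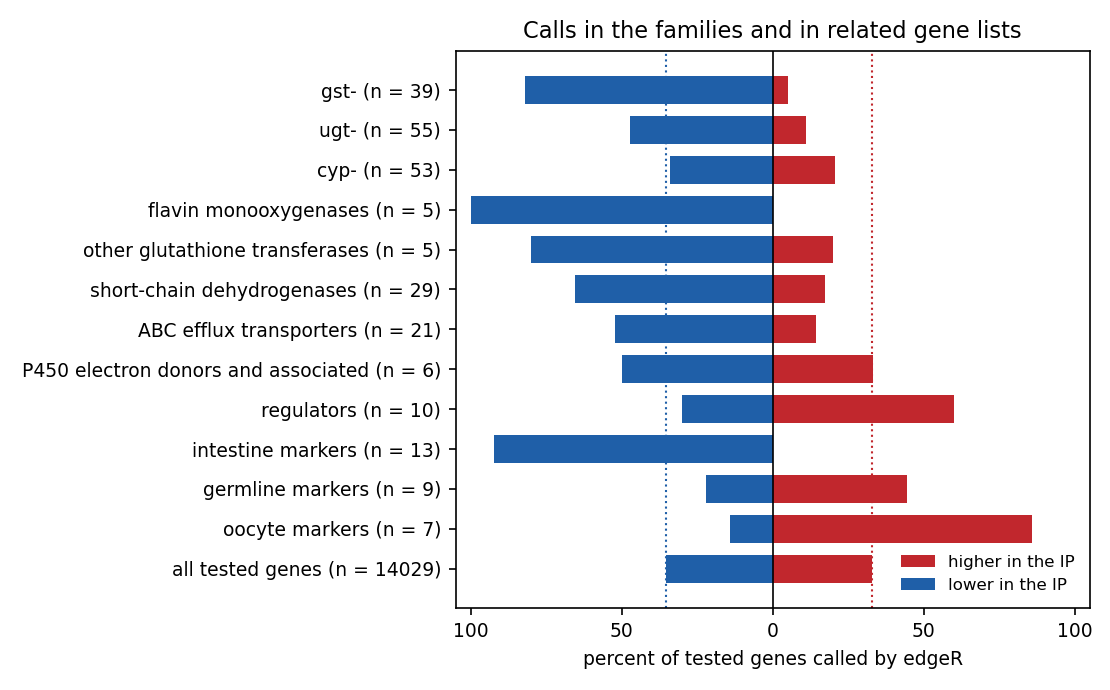
Percent of tested genes called higher (right) or lower (left) in the IP by edgeR on the TMM scale, for the 3 families, related gene lists, marker lists and all tested genes; dotted lines mark 32.9% higher and 35.4% lower over all tested genes. The gst- genes reach 82.1% lower, while 6 of 10 regulators and 6 of 7 oocyte markers are called higher on this scale.

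The counts moved with the scaling and the fit. With library size only, 37 gst-, 45 ugt- and 37 cyp- genes were lower and 1, 1 and 4 were higher, against 66.5% of all tested genes lower and 11.9% higher. With DESeq2 the genes called lower were 25 gst-, 9 ugt- and 6 cyp-, against 22.5% of all genes with an adjusted p. With single libraries left out, in fits that also drop the block, they were 24 to 30, 10 to 14 and 8 to 11, against 23.8% to 26.1% of all tested genes lower. In those fits the share called lower was 58.5% to 75% for gst-, 17.5% to 25.9% for ugt- and 14% to 20% for cyp-, so that only gst- stayed above the share of all genes in each of them. The share of all genes called higher was 29.6% with DESeq2, 30.4% with no block, and 25.8%, 27.7%, 28.6% and 26.8% without IP replicate 2, IP replicate 1, Input replicate 2 and Input replicate 1. With RLE size factors 34.9% of all tested genes were higher and 31.8% lower, and with at least 10 counts in every library 35.3% and 39.2%.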

How the data were processed

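The authors quantified genes with WormBase WS220 models on assembly ce10, and the sources used here name no aligner, counting program or strand setting (not stated). They deposited raw read counts per gene with gene model lengths. The authors also deposited log2 values, scaled to library size, logged after a pseudocount of 8 and quantile-normalized, and repeating these steps gave 81568 values, of which 0 differed by over 1e-06. Counts were tested with edgeR 4.0.16 (R 4.3.3; quasi-likelihood, TMM, filterByExpr with a minimum count of 10 and a minimum total of 15, replicate block, Benjamini-Hochberg at 0.05) on 14029 genes, of which 147 are members. With 1 residual degree of freedom and infinite prior degrees of freedom, edgeR used a spread shared between genes (common dispersion 0.00612). A gene's own spread between replicates thus has no weight in the standard errors and p-values, which may be too small. Standard errors are the size of the log2 fold change over the root of edgeR's F statistic. The step was tested on simulated counts with 1 dispersion for all genes, no replicate effect and few changed genes. That test cannot show whether the scaling or the p-values hold in these data. IP and input of a replicate come from 1 lysate, and their deviations correlated at r = 0.355 over genes. Totals per library ran from 33455857 to 40743247 counts, and intervals cover counting error only.

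Symbols matched 19182 of 20392 identifiers. Chromosomes and overlaps came from Ensembl release 115 (WBcel235), where 32 members overlap another gene, and no coordinates are printed because the build differs. The members and lists were chosen with earlier results of these data known. The named members are, per family, up to 6 with the largest and 6 with the smallest log2 fold change among calls with 1 direction in both replicates, the 4 of highest input level, and members of known role. Other members named beside their relatives or tandem groups, the genes picked from the related lists and the overlapping genes were chosen after their values were seen. Of the marker lists, 5 of 5 tested sperm genes, 4 of 5 muscle genes and 3 of 3 pharynx genes were lower (5, 5 and 3 with library size only). The background was 35.4% of all tested genes lower and 32.9% higher (66.5% and 11.9% with library size only). The sperm genes msp-19 and msp-77 were at 0 in all libraries. Of 9 germline genes 4 were higher and 2 lower, of 6 neuronal genes 2 and 2, and of 5 hypodermis genes 2 and 0 (with library size only 1 and 5, 1 and 4, and 0 and 2). Alternatives were DESeq2 1.42.0, a fit without the replicate block, scaling by RLE or by library size only, 2 other filters, and each library left out, the last without the block and with the lone library assumed to vary like the other group. Tables were handled with pandas 2.3.3 and scipy 1.17.1 in Python 3.11.15.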

Additional observations from a re-analysis of the deposited data

How the results depend on the processing

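Of the 51 tested members that the naming rule selected, 22 kept direction and side of the threshold under every alternative that tested them, and 9 changed sign under at least 1. The gst- genes called lower were 24 of 41 (without Input replicate 2) to 37 of 39 (library size only), against 32 of 39. With library size only, cyp- genes called higher were 4 and lower 37, ugt- 1 and 45, and gst- higher 1, with medians of -1.20, -1.35 and -2.44 for cyp-, ugt- and gst-, while all tested genes gave 1670 higher, 9333 lower and a median of -1.07. With DESeq2, 6 cyp- and 9 ugt- genes were lower and 1 gst- gene was higher, 3236 of all tested genes were lower, and the medians were -0.32 for ugt- and -0.063 for all genes. With RLE size factors these medians were -0.35 and -0.051. In the fit with no replicate block, which drops the pairing by lysate, 1 gst- gene was higher. With at least 10 counts in every library 1 gst- gene was higher and the median of all genes was -0.10, and with no filter it was -0.18. Leaving out single libraries gave 7 to 10 cyp- genes higher and 8 to 11 lower, 1 to 4 ugt- higher and 10 to 14 lower, and 1 to 2 gst- higher, with medians of -0.52 to -0.40 for ugt- and -0.17 to -0.11 for all genes. The causes were not tested, and fits with a library left out have fewer samples.

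The median IP enrichment with library size only was -0.91 for cyp-, -1.21 for ugt- and -2.04 for gst-, with TMM factors -0.24 for cyp- and -0.37 for ugt-, and with a pseudocount of 1 it was -1.52 for gst-. Signs turned with library size only for cyp-31A2 (-0.51), cyp-31A3 (-0.14), ugt-44 (-0.28), ugt-50 (-0.46), ugt-64 (-0.69) and gst-16 (-0.55). Among members past neither threshold, cyp-33E2 went to 0.00 with DESeq2 and from -0.48 to 0.44 over single libraries left out. For cyp-36A1 these were 0.05 with DESeq2, 0.04 with RLE size factors, and -0.53 to 0.54. For ugt-63 they were 0.05, 0.07, and -0.16 to 0.09.

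With 2 replicates and low counts in most ugt- and cyp- genes, small differences could not be detected for them. The fits with a library left out also drop the replicate block, which by itself gave 14 cyp- and 20 ugt- genes lower. Compared with that fit, the cyp- and ugt- lower counts were 11 and 11 without Input replicate 1, 8 and 14 without Input replicate 2, 8 and 14 without IP replicate 1, and 8 and 10 without IP replicate 2. The share of all tested genes called lower was 30.9% with no block and 23.8% to 26.1% in those fits.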
